A study of Mus musculus with 2 samples.

Results

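Expression of 9 genes of histamine, adenosine, lipid mediator and opioid signalling was examined in endogenous CD8+ T (en-T) cells, out of 19505 genes named on the array. The genes encode histamine receptors (Hrh4, Hrh1, Hrh2), the enkephalin precursor Penk and the delta opioid receptor Oprd1, the adenosine receptor Adora2a, the prostaglandin E2 receptors Ptger2 and Ptger4, and the sphingosine 1-phosphate receptor S1pr1. They were picked by symbol, after results of these arrays were known, so their values are given as a description and without a test. A probe set named here was found for 8 of the 9, with 1 probe set each, and Adora2a was not analysed here.

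Both groups consisted of female C57BL/6 mice, 6 to 8 weeks old, that received 200000 B16F10 melanoma cells on day 0, 300 mg/kg cyclophosphamide on day 3, 2000000 Pmel-1 T cells on day 5 and daily IL-2 (10000 IU, 3 doses) from that day. Pmel-1 cells carry a transgenic receptor against a melanoma antigen and the Thy1.1 marker, so the sort for CD8-positive, Thy1.1-negative cells from inguinal lymph nodes and spleen on day 25 left the recipient's own cells. The CTXpre group had no further treatment, and the CTXpre/CD4post group was also given 200 µg of the anti-CD4 antibody GK1.5 on days 10, 17 and 24. The sorted cells of 5 mice were pooled per group before RNA extraction, and each pool was measured on 1 Clariom S array, so n = 1 per group, no difference has a replicate check and no p-value is given. Levels are on the log2 scale, with differences taken as CTXpre/CD4post minus CTXpre. In such bulk samples, a change in the number of cells that carry a transcript and a change in transcript per cell cannot be told apart.

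The receptors in this group are G protein-coupled receptors that read small mediators released in inflamed or injured tissue and by tumors. Those coupled to Gs (Hrh2, Adora2a, Ptger2, Ptger4) raise cyclic AMP, which dampens signalling from the T-cell receptor, whereas those coupled to Gi (Hrh4, Oprd1, S1pr1) lower it and also drive cell migration, and Hrh1 couples to Gq and calcium release. S1pr1 is best known in T cells for guiding their exit from lymph nodes, and Hrh4 as the histamine receptor of blood-forming lineages.

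Regulatory sequence is shown for both prostaglandin E2 receptors, since they bind the same ligand, and of the receptors above background on both arrays they had the highest differences. The windows are the 250 bases before the annotated start in RefSeq (GRCm38.p6), written 5′ to 3′ in the gene's direction, for Ptger2 at chr14:44987861-44988110 (plus strand) and for Ptger4 at chr15:5244188-5244437 (minus strand). Capitals mark matches on either strand to the GC box (GGGCGG) and the CCAAT box (CCAAT).
Ptger2: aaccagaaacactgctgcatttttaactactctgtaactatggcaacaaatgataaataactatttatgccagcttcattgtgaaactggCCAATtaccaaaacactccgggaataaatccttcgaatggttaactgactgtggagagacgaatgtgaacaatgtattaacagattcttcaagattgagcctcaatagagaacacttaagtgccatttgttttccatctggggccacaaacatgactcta
Ptger4: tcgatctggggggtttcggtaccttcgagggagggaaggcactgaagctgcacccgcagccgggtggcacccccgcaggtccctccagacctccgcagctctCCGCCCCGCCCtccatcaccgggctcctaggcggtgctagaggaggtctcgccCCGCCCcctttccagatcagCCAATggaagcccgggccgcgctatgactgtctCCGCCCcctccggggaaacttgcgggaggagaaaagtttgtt
The Ptger2 window was poor in G and C (38.0%, 3 CpG) and that of Ptger4 was rich in both (66.8%, 19 CpG), against medians of 52.4% and 6 CpG over 32841 windows of the same length. Ptger4 had 4 matches to the GC box, of which 2 share 1 base, and Ptger2 had 0, while 32.7% of all windows held at least 1. Each of the pair had 1 match to the CCAAT box, which 33.9% of all windows held. Neither window held the core TGACG of the cyclic AMP response element or the TATA box TATAAA, which 17.8% and 12.4% of all windows held. These matches describe letters in a window and say nothing of binding. Of the 9 genes, 5 had a window in the table, and those of Hrh1, Hrh2 and Oprd1 are not printed.

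Whether a transcript was detected was judged against the levels of 1447 probe sets for receptors of smell, pheromones and taste (the olfactory, vomeronasal and taste receptor families), whose 95th percentile gave a bound of 4.32 on the CTXpre array and 4.33 on the CTXpre/CD4post array. Of the 8 genes measured, 7 were above the bound on both arrays and all 8 on the CTXpre/CD4post array. Over all named genes, 62% were above it on both arrays and 66.3% on at least 1. Penk lay just inside the bound on the CTXpre array, at 4.32 and above it by less than 0.01, and Hrh4 lay outside it, at 3.32. The other 6 genes were above both bounds by at least 0.60.

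The transcripts of Hrh4, Penk and Ptger4 were at least 1.5-fold higher in CTXpre/CD4post, those of Ptger2 and Oprd1 lay above 0 but short of 1.5-fold, and those of Hrh1, Hrh2 and S1pr1 lay slightly below 0. At least 1.5-fold higher were 3 of 8, beside 3.08% of the 12940 genes above background on at least 1 array, and 0 of 8 were lower by as much, beside 3.4%. These shares of all genes use the measured levels, and with undetected levels raised to the bound 322 genes were higher and 339 lower by 1.5-fold, while the counts among the 8 stayed 3 and 0. Past 2-fold lay Hrh4 and Penk, 2 of 8 higher and 0 of 8 lower, beside 0.549% and 0.541% of all genes, and past 3-fold the same 2 genes, beside 0.139% higher and 0.0386% lower. The genes were chosen with this comparison known, so nothing is read from that contrast. Their median difference was 0.22, while the median over all genes above background was 0.01 and the median absolute difference 0.17.

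**Figure D1:**
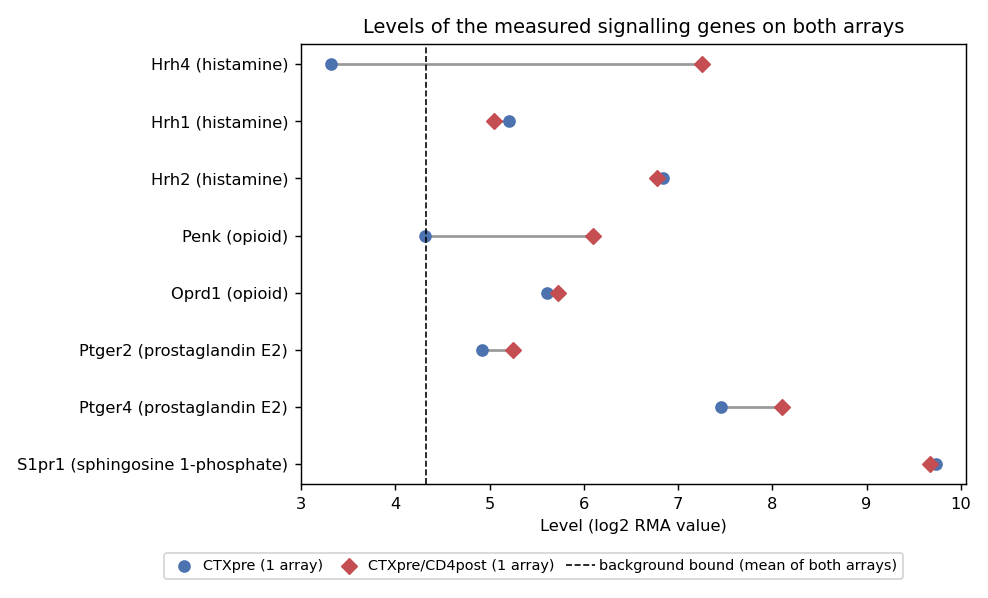
Levels (log2) of the 8 measured genes, 1 row per gene, with a circle for the CTXpre array, a diamond for the CTXpre/CD4post array and a dashed line at the mean of both background bounds. Hrh4 crosses the line, from 3.32 to 7.26, Penk starts on it at 4.32 and reaches 6.09, and the circle and diamond of Hrh2 and of S1pr1 nearly coincide.

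Among the histamine receptors, the transcript of Hrh4 was not above background in CTXpre (3.32) and reached 7.26 in CTXpre/CD4post. Set against the bound of the CTXpre array, its level was at least 7.67-fold higher. The measured difference was 3.94, which uses the undetected CTXpre level. With undetected levels raised to the bound, it was 2.94, and the next highest gene was Actg2, a smooth muscle actin, at 2.86. Actg2 was above background on both arrays, but in CTXpre (4.36) only just above the bound (4.32). In all, 389 named genes (1.99%) passed the bound in CTXpre/CD4post alone, and 2.32% passed it in CTXpre alone. The 389 had a median difference of 0.43, which selection by the bound makes positive by construction. Of the 389, 22 differed at least 2-fold by measured levels.

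The other histamine receptors were above background on both arrays, each at a similar level on the CTXpre and the CTXpre/CD4post array. Hrh1, the Gq-coupled receptor of allergic responses, was at 5.21 in CTXpre and 5.05 in CTXpre/CD4post, a difference of -0.16. Hrh2, the Gs-coupled receptor, was at 6.85 and 6.78, a difference of -0.06. The difference of Hrh1 is about as large as the median absolute difference over genes (0.17), and that of Hrh2 is smaller.

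Of the opioid genes, the peptide precursor differed more than 3-fold and the receptor less than 1.5-fold. Penk, which encodes the precursor of the enkephalins, was at 4.32 in CTXpre and 6.09 in CTXpre/CD4post (difference 1.77, 3.42-fold). Because its CTXpre level lay on the bound, this fold rests on a level that is close to undetected. Oprd1, whose product binds enkephalins, was at 5.61 and 5.73, a difference of 0.12.

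The prostaglandin E2 receptors, both Gs-coupled, were above background on both arrays, and of the pair Ptger4 alone passed 1.5-fold. Ptger4 was at 7.46 and 8.10, a difference of 0.64 (1.56-fold), which fell to 0.56, short of 1.5-fold, with 32 added to the linear values. Ptger2 was at 4.92 and 5.25, a difference of 0.33 (1.26-fold). Of the 7 receptors measured, Ptger4 was the only one above background on both arrays and past 1.5-fold.

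S1pr1 was well above background and nearly equal on both arrays, at 9.73 and 9.68 (difference -0.06). Grouped by coupling, the Gi-coupled receptors Hrh4, Oprd1 and S1pr1 ranged from -0.06 to 3.94 and the Gs-coupled receptors Hrh2, Ptger2 and Ptger4 from -0.06 to 0.64. Both groups therefore held a gene just below 0 and a gene past 1.5-fold.

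**Figure D2:**
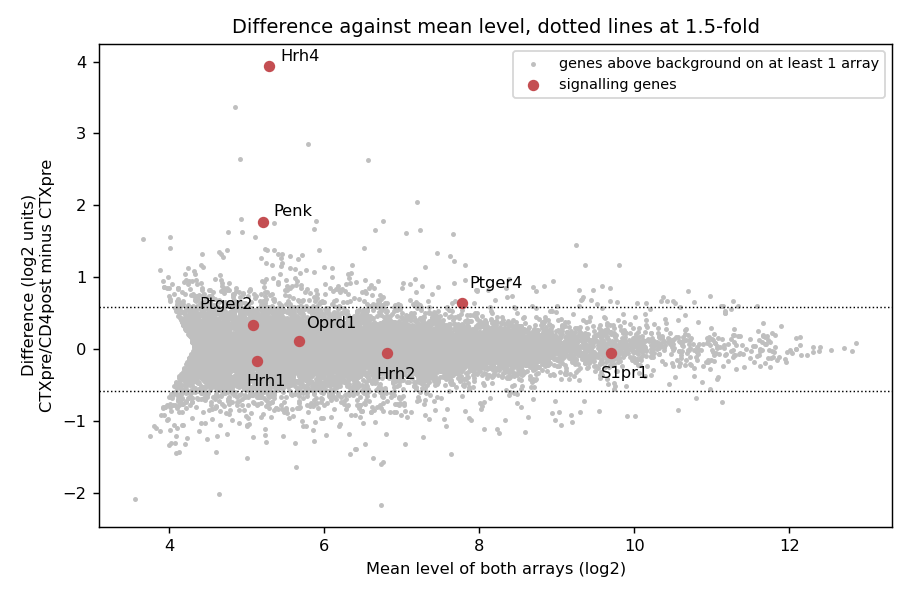
Difference (log2, CTXpre/CD4post minus CTXpre) against the mean level of both arrays for the 12940 genes above background on at least 1 array (grey) and the 8 signalling genes (red), with dotted lines at 1.5-fold. Hrh4 (3.94 by measured levels, with its CTXpre level below the background bound) has the highest point, Penk (1.77) lies well outside the band, Ptger4 (0.64) is just past the line, and the other 5 lie inside it.

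The spread of grey points is widest at low levels, where Hrh4 and Penk have their CTXpre values. Among the 1445 smell and taste receptor genes, the differences had an SD of 0.31 over genes and ran from -1.05 to 1.01, and past 1.5-fold were 4.08% on the higher and 2.35% on the lower side. By measured levels, the genes whose difference was nearest to that of Hrh4 were the chemokine receptor Ccr8 (3.16 in CTXpre and 6.53 in CTXpre/CD4post), Actg2 (4.36 and 7.22) and the chemokine receptor Ccr4 (3.59 and 6.23). Like Hrh4, Ccr8 and Ccr4 were not above background in CTXpre, and they were at least 4.65-fold and 3.76-fold higher in CTXpre/CD4post. Nearest to Penk were Fut7 (1.78), a fucosyltransferase that makes selectin ligands, Crmp1 (1.78) and Sema6d (1.76), and nearest to Ptger4 were Nupr1, Rab19 and Asic1 (0.64 each), of which Asic1 was not above background in CTXpre. With 1 array per group, likeness here means a similar size of a single difference, and for undetected genes that size is not exact.

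Other genes of the same systems were examined as 7 lists, written with earlier results of these data known, with 106 genes measured and 86 above background on at least 1 array. By the 1.5-fold threshold, 2 of the 86 genes (2.33%) were higher and 6 (6.98%) were lower in CTXpre/CD4post, beside 3.08% and 3.4% of all genes. Their median difference was -0.04. The lists were not chosen independently of the results, and the difference between these shares was not tested.

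Of 5 other histamine genes measured, 4 that make, store or degrade histamine and the receptor gene Hrh3, 3 were above background. Hdc, the enzyme that makes histamine, was at 5.15 in CTXpre and 4.38 in CTXpre/CD4post (difference -0.77, 1.70-fold), close to the bound of 4.33. Aoc1, which degrades histamine, was at 4.48 and 4.74, and Slc18a2, a vesicular monoamine transporter, at 4.73 and 4.75. Hrh3 and the degrading enzyme gene Hnmt were not above background on either array.

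In the opioid list, 6 of 11 genes were above background. Pnoc, the precursor of nociceptin, was at 4.33 and 5.16 (difference 0.83, 1.77-fold), so its CTXpre level, like that of Penk, lay at the bound. Anpep, an aminopeptidase that can cleave enkephalins, was at 8.83 and 7.83 (1.99-fold lower). The other precursors differed less, with Pdyn at 5.67 and 5.96 and Pomc above the bound in CTXpre only (4.53 and 4.18). Oprl1, the nociceptin receptor, was at 4.71 and 4.91, and the mu and kappa receptor genes Oprm1 and Oprk1 were not above background on either array.

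Adenosine receptor genes were not analysed here, but 9 genes that make, carry or clear adenosine were all above background, and none reached 1.5-fold. Of these, 8 lay below 0 and 1 above it, with a median of -0.13. Nt5e (CD73) and Entpd1 (CD39), which make extracellular adenosine from nucleotides, were at 6.67 and 6.52, and at 7.50 and 7.37. The largest differences were those of Dpp4 (-0.42), which binds adenosine deaminase at the cell surface, and Adk (-0.27), adenosine kinase.

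Of 21 prostanoid and leukotriene genes measured, 13 were above background, with a median difference of -0.11. Alox5ap, the protein that presents arachidonic acid to 5-lipoxygenase, was at 8.48 and 7.80 (difference -0.68, 1.60-fold), and no other detected gene reached 1.5-fold. Ptger1, the third receptor gene for prostaglandin E2 that was above background, was at 6.50 and 6.57. Ptger3 and the inducible cyclooxygenase Ptgs2 were not above background on either array.

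Around S1pr1, 19 of 22 sphingosine and lysophospholipid genes were above background, with a median of -0.11. Gpr34, a lysophosphatidylserine receptor, was at 6.39 and 5.74 (difference -0.64, 1.56-fold). Genes that act on S1pr1 differed by less than 1.5-fold, with Klf2, a transcription factor for S1pr1, at 9.14 and 9.03, and Cd69, which removes the S1pr1 protein from the surface, at 9.53 and 9.27. S1pr4, another sphingosine 1-phosphate receptor of lymphocytes, was at 9.02 and 9.19.

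Downstream, 24 of 26 genes of G proteins and cyclic AMP signalling were above background, with a median of 0.07. Gnaq, the Gq alpha subunit to which Hrh1 couples, was at 6.05 and 5.46 (difference -0.59, just past 1.5-fold), and the alpha subunits Gnas (9.60 and 9.67) and Gnai2 (11.01 and 11.16) were nearly level. Of 12 detected genes that switch receptors off, Rgs16, which speeds up GTP hydrolysis on Gi and Gq, was at 5.33 and 6.39 (difference 1.07, 2.09-fold), and Rgs2, which acts on Gq, was at 8.75 and 8.14 (difference -0.61, 1.53-fold). The median of that list was -0.05.

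**Figure D3:**
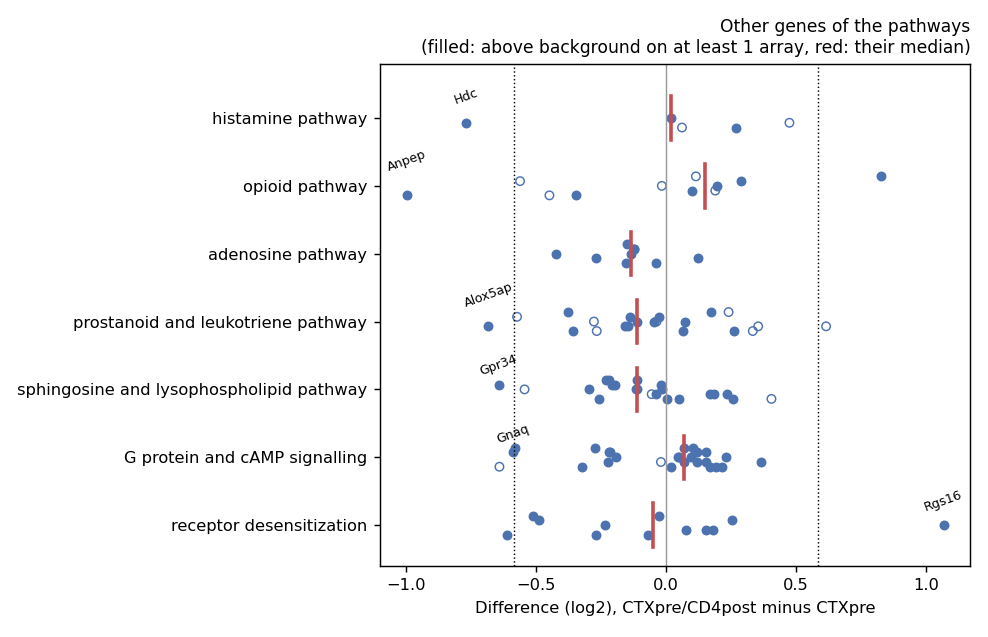
Difference (log2) of each measured gene in 7 pathway lists, 1 row per list, with filled circles for genes above background on at least 1 array, open circles for the others, red bars at the median of the filled circles and dotted lines at 1.5-fold. The medians lie between -0.13 and 0.15, and the label in a row names its detected gene with the largest difference where that is past 1.5-fold.

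The sorted cells were checked against marker genes. Their counts past 1.5-fold stand beside 3.08% higher and 3.4% lower over the 12940 genes above background. The difference from these shares was not tested. Of the T-cell identity list, 10 of 10 measured genes were above background and none reached 1.5-fold, with Cd8a at 11.47 and 11.72 and Cd3e at 11.62 on both arrays. The largest differences were those of Thy1 (0.38) and Cd8a (0.25), and 7 of the 10 lay above 0 and 3 below it. Of 7 detected CD4+ and regulatory T-cell markers, 1 was at least 1.5-fold higher and 2 lower, 4 lay above 0 and 3 below it, and the median was 0.23. Cd4 was 2.97-fold lower in CTXpre/CD4post (7.55 and 5.98), and Gpr83, a receptor of regulatory T cells, differed by -0.93. Cd40lg, which activated CD4+ T cells carry, was not above background in CTXpre (4.02). In CTXpre/CD4post it was at 5.82, at least 2.84-fold higher. The authors of the data also list Cd40lg among innate-like T-cell markers. Ctla4 (0.51), Zbtb7b (0.36) and Ikzf2 (0.23) lay above 0 and short of 1.5-fold. Both arrays correlated with a Pearson r of 0.988 over probe sets, which are not replicates.

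Markers of other cells differed in the same comparison as several genes described here. Of 10 dendritic-cell markers, all detected, 6 were at least 1.5-fold lower in CTXpre/CD4post, beside 3.4% of all genes. The largest differences were those of Fscn1 (-1.40) and Siglech (-1.32). The median was -0.69, with 9 of the 10 below 0 and 1, Bst2 (0.48), above it. Their summed linear levels were 2406 and 1863, of which Ccr7 alone held 1167 and 995. The myeloid list (11 detected, 5 lower, median -0.54) held Fcgr3 (-1.18) and Mpeg1 (-1.12) as its largest differences. Of its 11 detected genes, 7 lay below 0 and 4 above it, with Cx3cr1 (0.20) the highest. Its summed levels were 4164 and 4157, of which the greater part came from Ly6c2, a gene that CD8+ memory T cells also express. Anpep, Alox5ap and Gpr34, known also from myeloid and dendritic cells, were lower in the same comparison, and the part of such cells in their differences was not tested.

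Hdc and Hrh4 are known from mast cells, basophils and eosinophils. The authors of the data also list Hrh4 among innate-like T-cell markers. By RNA sequencing of other samples, they found it higher in en-T cells enriched for the IL-18 receptor than in the remaining en-T cells. Of 15 markers of mast cells, basophils and eosinophils, 7 were above background on at least 1 array. With undetected levels raised to the bound, 1 of the 7, Kit, was at least 1.5-fold lower and the median was -0.13, beside -0.23 by measured levels, and the summed level over all 15 was 372 in CTXpre and 314 in CTXpre/CD4post. Of those sums, Kit alone held 141 and 80. Kit differed by -0.83, and Cpa3, above background in CTXpre only, was at least 1.09-fold lower. By measured levels, 3 of the 7 lay above 0, with Tpsb2 (0.49) the highest, and 4 lay below it. The subunits of the IgE receptor, Fcer1a and Ms4a2, were not above background on either array. The detected members of this list thus differed in sign. The part of mast cells, basophils and eosinophils in the differences of Hdc and Hrh4 was not tested. The B-cell list (9 detected, 3 lower, led by Fcrla at -0.95 and Blk at -0.61) had a median of -0.35, with 8 below 0 and 1 above it. The list of natural killer and innate-like T cells (7 detected, 1 lower) had a median of -0.10, with all 7 below 0. Ncr1 was not above background on either array. Klrb1c, above background in CTXpre only, was at least 1.95-fold lower in CTXpre/CD4post, and the next largest difference was that of Sox13 (-0.47). None of 6 detected erythroid and platelet genes was past 1.5-fold, with a median of -0.07 and the largest differences for Klf1 (-0.40) and Alas2 (-0.22).

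**Figure D4:**
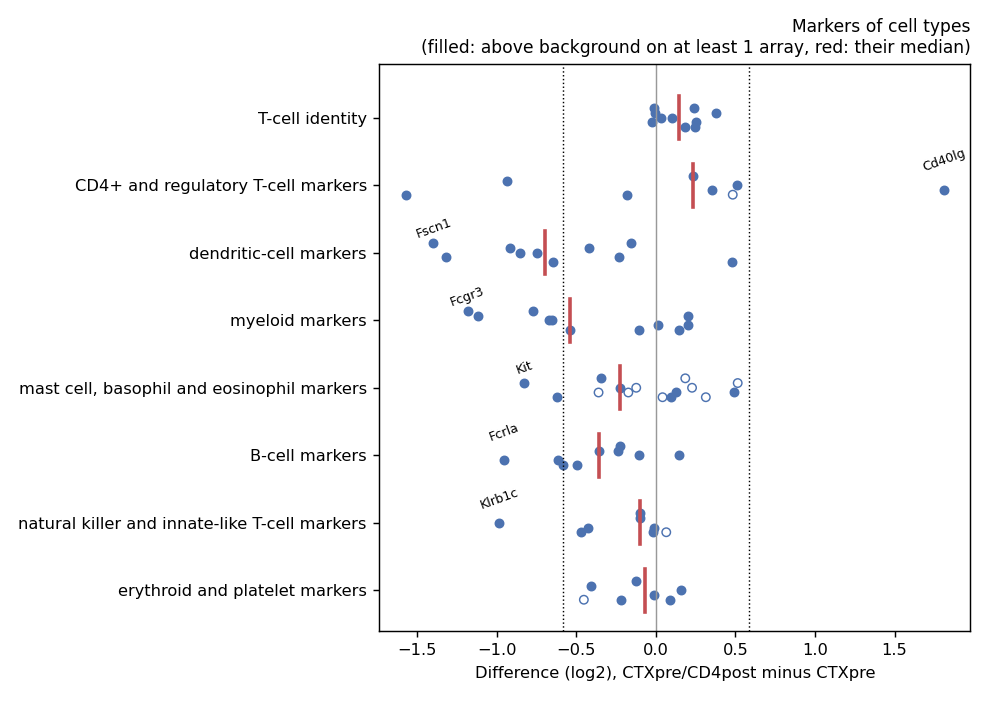
Difference (log2) of each measured gene in 8 marker lists, drawn as for the pathway lists. The medians of the dendritic-cell (-0.69), myeloid (-0.54) and B-cell (-0.35) lists lie to the left of 0, those of T-cell identity (0.14) and of CD4+ and regulatory T cells (0.23) lie to the right, and a label names the detected gene with the largest difference in a row where that is past 1.5-fold.

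Of 11 alternative settings, 6 (other bounds, no filter, the mean of probe sets) leave the differences of these genes as they are, 1 (levels raised to the bound) moves Hrh4 alone, and 4 (centring, quantile normalization, a lowess trend, 32 added) move all 8. Over these settings Hrh4 ranged from 2.14 to 3.94, Penk from 0.95 to 1.78 and Ptger4 from 0.56 to 0.64, the low end being with 32 added to the linear values, where Ptger4 alone of the 3 fell short of 1.5-fold. Ptger2 ranged from 0.17 to 0.33, Oprd1 from 0.07 to 0.12, Hrh1 from -0.18 to -0.09, Hrh2 from -0.08 to -0.05 and S1pr1 from -0.09 to -0.06.

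Whether Penk counted as detected in CTXpre did depend on the bound. It was not above the 99th percentile, nor above the 95th percentile of olfactory receptors alone (4.44), and its level was then higher by at least 1.96-fold with the former and by at least 3.13-fold with the latter. For Hrh4 these lower limits were 4.39-fold with the former and 7.02-fold with the latter.

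**Figure D5:**
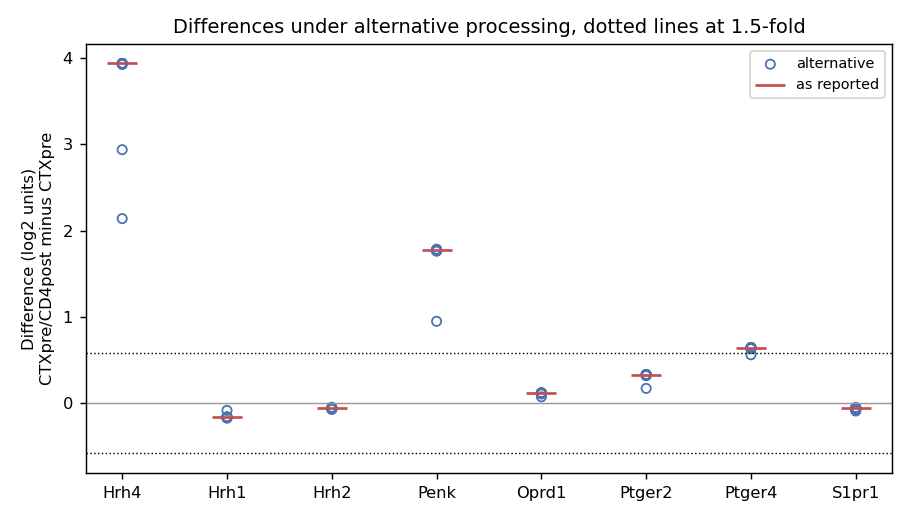
Difference (log2, CTXpre/CD4post minus CTXpre) of the 8 genes as reported (red bar) and under each of 11 alternative settings (open circles), with dotted lines at 1.5-fold. Of the 11 settings, 6 leave every value in place, so their circles coincide with the bar, and the lowest circles of Hrh4 (2.14), Penk (0.95) and Ptger4 (0.56) are those with 32 added to the linear values.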

How the data were processed

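The deposited log2 values were made by the authors by RMA (robust multi-array averaging), run in Affymetrix Power Tools. Tool versions and a genome build were not given in the sources used here. RMA gives both arrays nearly the same distribution, so a shift in total RNA cannot be seen, and 1 array per group limits the precision. Of 22206 probe sets, 19572 carried 1 gene symbol, 0 several and 2634 none here. For the 55 genes with several probe sets, the one with the highest mean was kept. There were 0 unused columns of sample values.

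A gene was called above background past the 95th percentile of the smell and taste receptor probe sets of its array. Where only 1 array passed, the fold was taken from the brighter level to the dim array's bound, or to the dim level if that was higher ("at least N-fold"). Counts, ranges and medians use measured levels unless undetected levels are said to be raised to the bound. No test was run. Differences, counts past 1.5-fold and list medians were computed with Python 3.11.15, numpy 2.4.6 and pandas 2.3.3. The steps were tested on simulated data. Changes were planted there only in probe sets with a higher mean level than Hrh4 and Penk, so genes as dim as these were not covered.

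The signalling genes and all lists were chosen with earlier results of these data known. Named genes were all 9 signalling genes; from each pathway list the detected genes at least 1.5-fold different, otherwise the 2 with the largest difference; for Hrh4, Penk and Ptger4 the 3 genes nearest in difference (without predicted and listed genes); and from each marker list the defining markers and the 2 largest differences. Other list members named in the report were chosen after their values were seen. Listed genes without a probe set named here were not analysed. Alternatives were centring, renewed quantile normalization, a lowess trend removed (fraction 0.3), 32 added to linear values, the 90th and 99th percentiles as bound, the mean of probe sets, levels set at the bound, no filter, thresholds of 2-fold and 3-fold, and, chosen after seeing the data, olfactory receptors alone or Tas1r taste receptors added as bound.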

Additional observations from a re-analysis of the deposited data

How the results depend on the processing

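With 32 added to the linear values, genes at least 1.5-fold higher numbered 120 in place of 398 and those at least 2-fold higher 21 in place of 71, those at least 1.5-fold lower 109 in place of 440 and those at least 2-fold lower 13 in place of 70. Pathway genes past 1.5-fold then numbered 1 higher in place of 2 and 2 lower in place of 6. This offset shrinks the differences of dim genes by construction, to 2.14 for Hrh4 and 0.95 for Penk. With undetected levels raised to the bound, 45 genes in place of 70 were at least 2-fold lower, 58 in place of 71 at least 2-fold higher, and Hrh4 differed by 2.94. With no filter, which adds dim genes, 683 genes were at least 1.5-fold higher. Of the 11 settings applied to the signalling genes' differences, 6 cannot move them, so they do not bear on their stability. In all, 104 other recomputed counts stayed within 1.5 times. Some of these, such as counts above background with 32 added, cannot change, so their number does not measure stability. With the 99th percentile as bound, 5 of the 8 genes were above background in CTXpre and 7 in CTXpre/CD4post. Hrh4, Penk and Ptger2 (4.92, bound 5.12) were then not above it in CTXpre, nor was Hrh1 (5.05, bound 5.09) in CTXpre/CD4post. With Tas1r receptors added to the bound (4.35 in CTXpre), Penk was not above background in CTXpre and at least 3.35-fold higher. No replicate could be left out. No paired analysis was possible because each group had 1 array. Low signal limits Hrh4, Penk, Pnoc and Hdc, and the markers Cpa3, Cd40lg and Klrb1c, each near or below the bound on at least 1 array.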
